A study of Mus musculus with 6 samples.

Results

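The genes of cholesterol synthesis and sterol control are described here in 4T1 cells, a mouse mammary carcinoma line that serves as a triple-negative breast cancer model. The set holds 27 genes listed by name: 19 enzymes that build cholesterol from acetyl-CoA, 4 genes of sterol sensing and 4 genes of sterol transport and esterification. All 27 were found among the 28418 genes of the deposited tables, and all 27 averaged 1 FPKM or more over the 6 libraries, as did 11741 genes in all. FPKM are fragment counts scaled to transcript length and to the size of the library. The groups were 4T1 cells at 100 nM perfluorooctane sulfonate (PFOS, a long-lived fluorinated pollutant; 3 libraries) and 4T1 cells at 0 nM PFOS (3 libraries), both kept for 35 passages. Both groups are 1 cell line in culture, and the vehicle is not given in the sources used here. Whether the replicates were grown as separate cultures is not stated, so the p-values reflect just the spread among these 6 samples, and that spread may be technical.

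Cells make cholesterol from acetyl-CoA through mevalonate and isoprenoid diphosphates, which are joined to squalene, closed to lanosterol and trimmed in a series of steps to cholesterol. The endoplasmic reticulum senses its own sterol: when sterol is low, the escort protein Scap carries the membrane-bound transcription factor SREBP2 (gene Srebf2) to the Golgi, where it is cut and freed to switch on nearly every enzyme gene of the route. When sterol is high, Insig1 and Insig2 hold Scap back. Branches before squalene supply prenyl groups for proteins such as Rab GTPases, and tumour cells rely on the route for membranes as well as for prenylation.

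The libraries had similar sums, 306735 to 309381 FPKM at 100 nM and 306716 to 308830 FPKM at 0 nM. The files hold no read counts, so depth is unknown and precision is known only from the replicates. Epithelial markers, 7 of 7 of which were in the files (Epcam, Cdh1, Krt8, Krt18, Krt7, Krt19 and Cldn4), summed to 762 to 819 FPKM at 100 nM and to 730 FPKM at 0 nM. The sum of this list moved with the groups. Epcam was at 29.0 to 35.09 FPKM at 100 nM and at 25.1 to 26.04 FPKM at 0 nM. Cdh1 was at 64.42 to 67.35 FPKM at 100 nM and at 53.82 to 54.36 FPKM at 0 nM. Krt7, Krt18 and Krt19 were also wholly higher at 100 nM, but Krt8 and Cldn4 overlapped between the groups. In replicate 3 at 100 nM, Krt8 was at 289.03 FPKM and Cldn4 at 11.57 FPKM, against 288.74 to 290.64 and 14.71 to 15.88 FPKM at 0 nM. The part of this list in the results below was not tested. Esr1, the oestrogen receptor gene, was at 0.26 to 0.45 FPKM at 100 nM and at 0.41 to 0.45 FPKM at 0 nM, and Erbb2 was at 13.48 to 13.56 FPKM at 100 nM and at 13.24 to 13.95 FPKM at 0 nM. Replicate 3 at 100 nM stood apart. The 14 leukocyte markers summed to 119 FPKM there and to 24.6 to 37.0 FPKM in the other 5 libraries. Cd14 gave 65.16 FPKM of that sum and was present in the others too, at 8.41 to 24.14 FPKM. Gzmb, a cytotoxic lymphocyte gene, was at 14.94 FPKM there and at 0 to 0.05 FPKM elsewhere. Cd3e was at 0.66 FPKM there and at 0 in the other 5, and Ms4a1 was at 0 throughout. In replicate 3 at 100 nM the 6 fibroblast markers summed to 8.32 FPKM, against 4.83 to 5.48 FPKM in the others. Dcn was at 2.26 FPKM there and at 0 to 0.05 FPKM elsewhere. Not all of them were raised: Col1a1 was at 1.59 FPKM there and at 0.96 to 1.87 FPKM elsewhere. The endothelial markers were low but also summed highest there, to 0.42 FPKM against 0.07 to 0.19 FPKM. Values without that library are given beside the results for the set and for some single genes. In a bulk sample, fewer cells of a type and less RNA per cell cannot be told apart.

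Most genes of cholesterol synthesis had a slightly higher level at 100 nM PFOS. Of the 27 genes, 24 had a higher mean on the log2(FPKM + 1) scale at 100 nM, a direction found for 52.6% of all 11741 tested genes; with median-of-ratios scaling 22 of 27 did (49.9% of all genes). The median difference was 0.09 on that scale, against 0.01 over all tested genes, and the middle gene by ratio of mean FPKM stood 7.91% higher. By limma-trend on log2(FPKM + 1), two-sided, with Benjamini-Hochberg adjustment over all tested genes, 2 of the 27 rose (adjusted p under 0.05) and 0 fell: Scap and Acat2. Of all tested genes 1.69% rose, 2.46% fell and 4.15% changed in either direction; a count of 2 is too few to be read as a result about these genes. At an unadjusted p under 0.05 there were 13 of 27, all higher at 100 nM, where 10.6% of all tested genes were higher and 20.7% passed in either direction. The 3 values at 100 nM lay wholly above the 3 values at 0 nM for 14 genes and wholly below for 1, where 13.7% and 13.3% of all tested genes did so. Without replicate 3 at 100 nM, 21 of 27 had a higher mean, the median difference was 0.10, and the groups did not overlap for 17 higher and 2 lower genes, where 19.7% and 17.6% of all genes tested without it did so.

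Calls were fewer with 5 libraries, while the differences of the called genes moved little: that of Scap was 0.18 to 0.20 and that of Acat2 0.15 to 0.19 (log2 scale) over all 17 alternatives. No member was called when replicate 1 or 2 at 100 nM, or any one of the 3 replicates at 0 nM, was left out, and the 2 called without replicate 3 at 100 nM were Scap and Idi1. Over all tested genes the count of changed genes, 487 with the 6 libraries, was 183 without replicate 1 at 100 nM, 142 without replicate 2 and 290 without replicate 3, and 139, 122 and 144 without replicate 1, 2 and 3 at 0 nM.

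**Figure D1:**
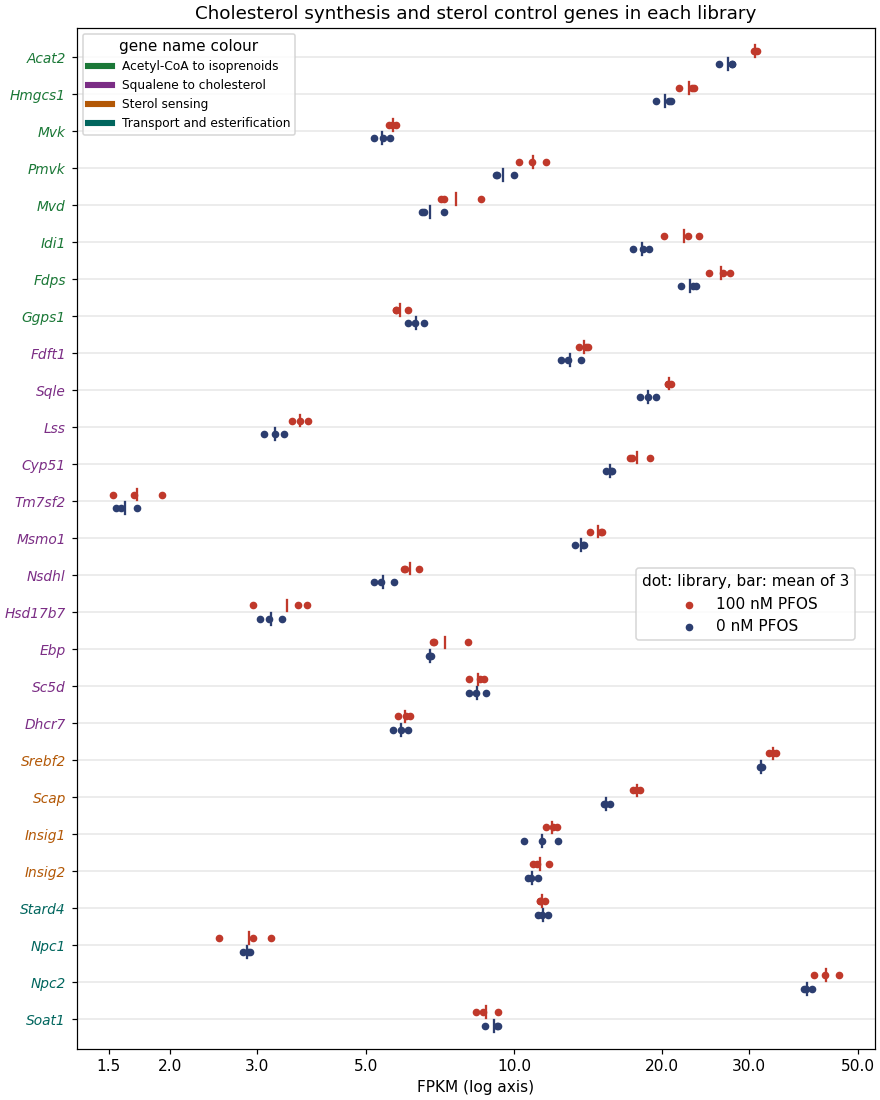
FPKM of the 27 genes on a log axis, with 3 libraries at 100 nM PFOS (red, upper row of each gene) and 3 at 0 nM PFOS (blue, lower row); dots are libraries and bars are means. Red dots lie wholly right of blue ones for 14 genes, among them Scap, Acat2, Fdps and Cyp51, and wholly left for 1, Ggps1.

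Levels spanned a wide range within the route. On the FPKM scale, which is per length, the highest mean over the 6 libraries was that of Npc2 (41.2 FPKM) and the lowest that of Tm7sf2 (1.67 FPKM). Replicates were close, with a coefficient of variation over 3 libraries of 0.843% (Acat2) to 12.9% (Hsd17b7) at 100 nM and of 0.41% (Srebf2) to 8.01% (Insig1) at 0 nM, with medians of 3.81% at 100 nM and 3.65% at 0 nM. Summed over the 19 synthesis enzymes, the level was 237.0, 236.2 and 233.8 FPKM in replicates 1 to 3 at 100 nM and 213.0, 210.0 and 212.6 FPKM in replicates 1 to 3 at 0 nM. The sums of the groups did not overlap, and the abundant genes weigh most in them.

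The route from acetyl-CoA to isoprenoids held the widest spread of differences. Of its 8 genes, 7 had a higher mean at 100 nM, 1 rose and 0 fell, with a median difference of 0.16 (log2 scale). Over all tested genes, 52.6% had a higher mean, 1.69% rose and 2.46% fell. Acat2 (ENSMUSG00000023832, chromosome 17, 12942890 to 12960747, minus strand), the cytosolic thiolase that joins the first acetyl-CoA units, had 31.17, 30.65 and 30.88 FPKM at 100 nM, against 27.73, 26.12 and 27.76 FPKM at 0 nM. Each 100 nM library lay above each 0 nM library, and the difference on the log2 scale came to 0.18 ± 0.03 (SE; limma adjusted p = 0.0309). Its call was lost in 10 of 17 alternatives (adjusted p 0.0256 to 0.125, difference 0.15 to 0.19), and 43.7% of its 31-base words are also found in transcripts of its near copy Acat3, so how the authors' quantification divided fragments between them is uncertain.

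Hmgcs1, which makes HMG-CoA, had 23.20, 23.02 and 21.66 FPKM at 100 nM, against 20.62, 20.79 and 19.43 FPKM at 0 nM. The groups did not overlap, but its difference of 0.15 ± 0.04 (SE) missed the threshold (limma adjusted p = 0.0869). Idi1, the isomerase of the isoprenoid unit isopentenyl diphosphate, gave the highest difference of the 27, 0.27 ± 0.06 (SE; limma adjusted p = 0.0654). Its values were 23.70, 22.52 and 20.11 FPKM at 100 nM and 18.26, 18.82 and 17.44 FPKM at 0 nM. The groups did not overlap although replicate 3 at 100 nM was the lowest of its group, and without that library the difference was 0.33 and the gene was called (limma adjusted p = 0.0239). Of its words, 18.8% are shared with other genes.

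At the next step the route forks. Fdps, the synthase of farnesyl diphosphate from which squalene and prenyl groups are made, had 24.84, 26.52 and 27.38 FPKM at 100 nM, against 23.04, 21.83 and 23.42 FPKM at 0 nM, with no overlap and a difference of 0.20 ± 0.04 (SE; limma adjusted p = 0.0604). The annotated gene Gm43738 covers 26.7% of its exonic bases on the same strand, so its level is uncertain to that extent. Ggps1, which extends farnesyl diphosphate to the geranylgeranyl diphosphate used to prenylate proteins, was the one gene with all 100 nM values below all 0 nM values, at 5.76, 6.08 and 5.76 FPKM at 100 nM and 6.57, 6.09 and 6.30 FPKM at 0 nM. The closest pair of libraries differed by little, and the difference of -0.09 ± 0.04 (SE) was not called (limma adjusted p = 0.255). Earlier in the route, Mvk, Pmvk and Mvd phosphorylate and decarboxylate mevalonate. At 100 nM these genes averaged 5.66 ± 0.0917, 10.9 ± 0.695 and 7.62 ± 0.818 FPKM, in that order (SD, n = 3 each). At 0 nM they averaged 5.40 ± 0.195, 9.47 ± 0.459 and 6.75 ± 0.385 FPKM (SD, n = 3 each). None of the 3 was called by limma, and the groups overlapped for Mvk and Mvd.

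From squalene to cholesterol, 11 of 11 genes had a higher mean at 100 nM (all but Sc5d with median-of-ratios scaling), with differences from 0.003 to 0.18 and a median of 0.09 (log2 scale). Over all tested genes 52.6% had a higher mean. None of the 11 was called by limma, and 5 had an unadjusted p under 0.05 (20.7% of all tested genes in either direction). The groups did not overlap for 6, all higher at 100 nM (13.7% of all tested genes were wholly higher). Cyp51, the cytochrome that removes a methyl group from lanosterol, came nearest, with 18.83, 17.36 and 17.19 FPKM at 100 nM against 15.39, 15.77 and 15.69 FPKM at 0 nM and a difference of 0.18 ± 0.04 (SE; limma adjusted p = 0.0585). All 100 nM libraries lay above all 0 nM libraries, with replicate 1 at 100 nM the highest. Sqle, the epoxidase that oxidises squalene and a second point of control in the route, had 20.54, 20.83 and 20.49 FPKM at 100 nM and 19.39, 18.67 and 17.99 FPKM at 0 nM, again without overlap (difference 0.14 ± 0.03 SE; limma adjusted p = 0.0678).

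The other enzymes of this stretch with no overlap were Lss, the cyclase that forms lanosterol, at 3.67 ± 0.140 FPKM at 100 nM and 3.26 ± 0.145 FPKM at 0 nM, and the methylsterol oxidase Msmo1 at 14.8 ± 0.469 FPKM at 100 nM and 13.7 ± 0.314 FPKM at 0 nM (SD, n = 3 each), followed by 2 X-linked genes. The decarboxylating dehydrogenase gene Nsdhl averaged 6.13 ± 0.252 FPKM at 100 nM and 5.42 ± 0.265 FPKM at 0 nM, and the isomerase gene Ebp 7.25 ± 0.687 FPKM at 100 nM and 6.74 ± 0.0416 FPKM at 0 nM (SD, n = 3 each). For Ebp replicate 2 at 100 nM stood high, at 8.04 FPKM, and replicates 1 and 3 at 6.87 and 6.83 FPKM were close to the 0 nM level. The squalene synthase gene Fdft1 averaged 13.9 ± 0.311 FPKM at 100 nM and 12.98 ± 0.629 FPKM at 0 nM (SD, n = 3 each), with overlap, and 18.3% of its exonic bases overlap the cathepsin gene Ctsb on the other strand. Late steps differed least. Sc5d, a desaturase near the end of the route, averaged 8.43 ± 0.304 FPKM at 100 nM and 8.41 ± 0.327 FPKM at 0 nM, and Dhcr7, the reductase of the last step of one branch, 6.00 ± 0.168 FPKM at 100 nM and 5.88 ± 0.216 FPKM at 0 nM (SD, n = 3 each). The 95% limma interval of the difference ran from -0.09 to 0.10 for Sc5d and from -0.07 to 0.12 for Dhcr7 on the log2 scale, so differences of the size of that of Cyp51 lie outside both. The direction of Sc5d turned without replicate 2 or 3 at 100 nM or replicate 2 at 0 nM and with median-of-ratios scaling. The sterol reductase gene Tm7sf2 and the ketoreductase gene Hsd17b7 were low, and their groups overlapped. They averaged 1.72 ± 0.201 and 3.46 ± 0.446 FPKM at 100 nM and 1.62 ± 0.0833 and 3.20 ± 0.166 FPKM at 0 nM (SD, n = 3 each). The gene Vps51 covers 12.1% of the exonic bases of Tm7sf2 on the same strand, so the level of Tm7sf2 is uncertain.

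**Figure D2:**
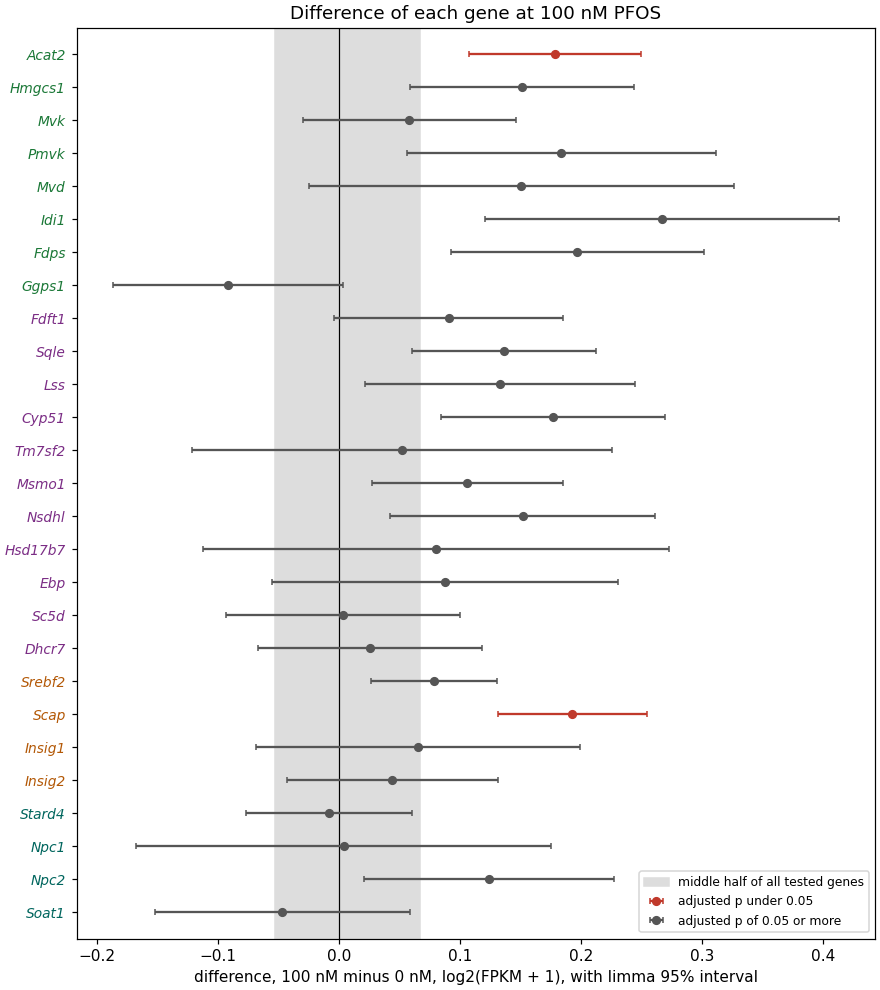
Difference of each gene, 100 nM minus 0 nM, on the log2(FPKM + 1) scale with its 95% limma interval; red marks an adjusted p under 0.05 and the grey band spans the 25th to 75th percentile of all tested genes (-0.05 to 0.07). Of the 27 genes, 17 lie right of the band and 1, Ggps1, lies left of it.

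Among the 4 sterol-sensing genes, 1 rose (1.69% of all tested genes did). Scap (ENSMUSG00000032485, chromosome 9, 110333288 to 110378776, plus strand), the escort that carries SREBP proteins out of the endoplasmic reticulum, had 17.71, 18.05 and 17.45 FPKM at 100 nM, against 15.65, 15.31 and 15.22 FPKM at 0 nM. The lowest 100 nM value stood clear of the highest 0 nM value, and the difference was 0.19 ± 0.03 (SE; limma adjusted p = 0.0150), the smallest p of the 27. The call was lost in 7 of 17 alternatives, with adjusted p from 0.0132 to 0.0996 and a difference of 0.18 to 0.20 throughout. The annotated gene 5830462I19Rik overlaps 13.2% of its exonic bases on the other strand, and whether strand was used in quantification is not given in the sources used here. Srebf2, which encodes SREBP2 itself, had 34.03, 32.95 and 33.55 FPKM at 100 nM and 31.81, 31.68 and 31.55 FPKM at 0 nM, without overlap. Its 0 nM values were the tightest of the set, yet the difference of 0.08 ± 0.02 (SE) was not called (limma adjusted p = 0.105).

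The anchors did not separate. Insig1, itself a classical SREBP target in sterol-depleted cells, had 12.20, 11.97 and 11.58 FPKM at 100 nM, against 10.45, 12.27 and 11.38 FPKM at 0 nM. Insig2, which is less dependent on SREBP, had 11.11, 10.92 and 11.75 FPKM at 100 nM, against 10.84, 10.65 and 11.18 FPKM at 0 nM. The groups overlapped for both. The differences were 0.07 for Insig1, with a 95% limma interval from -0.07 to 0.20, and 0.04 for Insig2, with one from -0.04 to 0.13, so an Insig1 difference as large as that of Scap lies within its interval. In transport and esterification, 2 of 4 genes had a higher mean at 100 nM (52.6% of all tested genes did). None was called by limma, and 1 had an unadjusted p under 0.05 (20.7% of all tested genes in either direction). The lysosomal cholesterol-binding gene Npc2 had no overlap, at 43.1 ± 2.54 FPKM at 100 nM and 39.4 ± 0.711 FPKM at 0 nM, while its membrane partner Npc1 averaged 2.89 ± 0.349 FPKM at 100 nM and 2.87 ± 0.0513 FPKM at 0 nM (SD, n = 3 each). The sterol carrier gene Stard4, another SREBP target, averaged 11.4 ± 0.150 FPKM at 100 nM and 11.4 ± 0.262 FPKM at 0 nM, and Soat1, which esterifies cholesterol for storage, 8.77 ± 0.456 FPKM at 100 nM and 9.09 ± 0.302 FPKM at 0 nM (SD, n = 3 each).

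**Figure D3:**
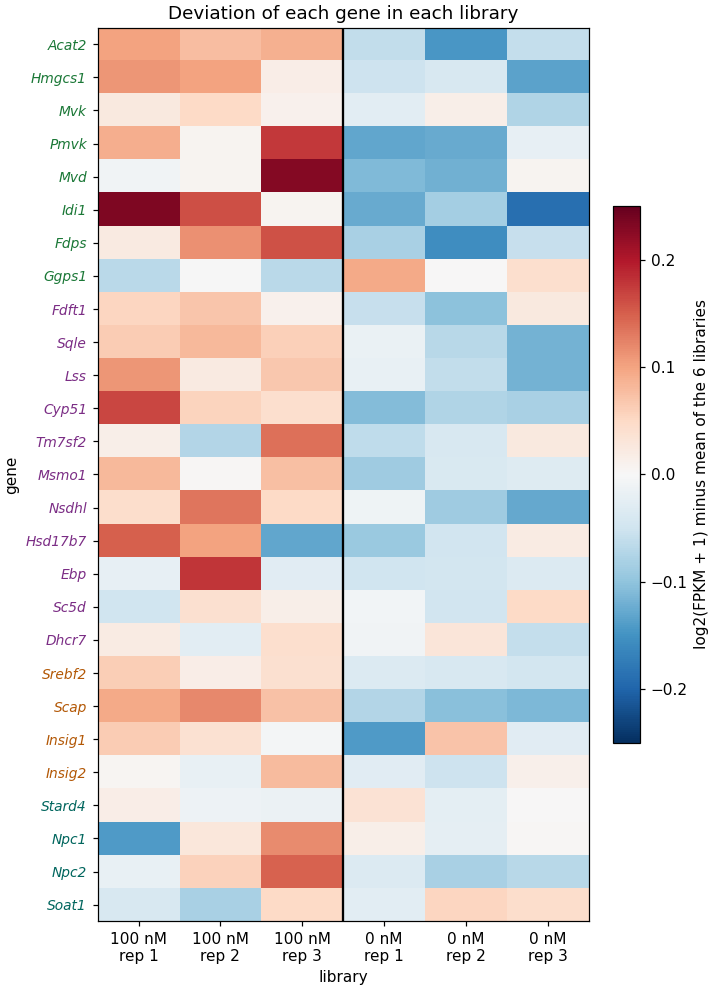
Each gene's log2(FPKM + 1) in each library minus its mean over the 6 libraries, with 100 nM libraries left of the line and 0 nM libraries right of it. In the 3 libraries at 100 nM 20, 21 and 22 of 27 genes lie above their own mean (red), and 3, 5 and 10 of 27 do so at 0 nM.

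The direction was shared by the libraries of a group. The median deviation of the 27 genes from their own 6-library mean was 0.044, 0.040 and 0.0498 on the log2 scale in replicates 1, 2 and 3 at 100 nM, and -0.0500, -0.0488 and -0.0351 in replicates 1, 2 and 3 at 0 nM. Over all tested genes the same medians lay between -0.0011 and 0.0059 at 100 nM and between -0.0074 and 0.0025 at 0 nM. Replicate 3 at 100 nM, with the leukocyte transcripts, held the highest 100 nM value for 9 of the 27 genes and the lowest for 11. Without that library the difference went from 0.20 to 0.17 for Fdps, from 0.18 to 0.14 for Pmvk and from 0.15 to 0.073 for Mvd. It went from 0.12 to 0.081 for Npc2 and from 0.052 to -0.0039 for Tm7sf2. In the other direction, it went from 0.27 to 0.33 for Idi1, from 0.15 to 0.18 for Hmgcs1 and from 0.18 to 0.20 for Cyp51. With all 6 libraries, 17 of the 27 exceeded the 75th percentile of all tested genes (0.07), 2 the 95th (0.19) and 1 lay under the 25th (-0.05).

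**Figure D4:**
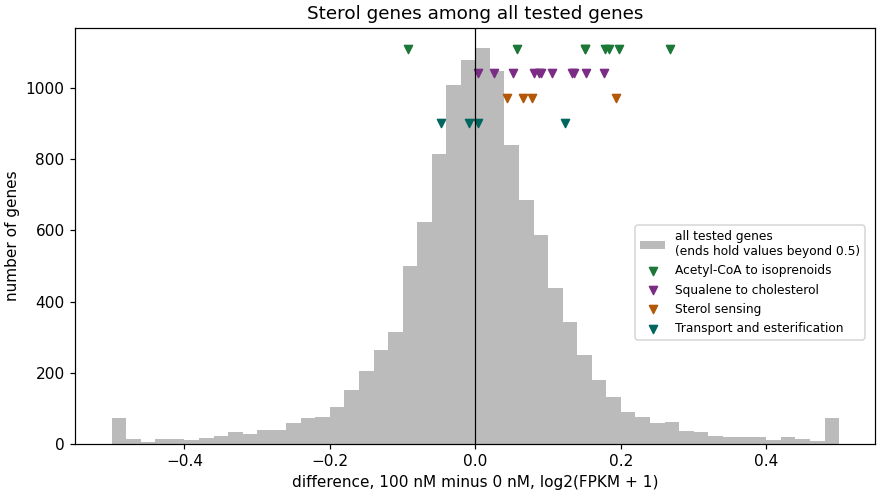
Histogram of the difference, 100 nM minus 0 nM, over 11741 tested genes, with the 27 sterol genes as triangles by role. The triangles for squalene to cholesterol all lie right of 0 (Sc5d, nearest to 0, turns with median-of-ratios scaling), within the bulk of the histogram, and only those of Idi1 and Fdps lie past the 95th percentile of 0.19.

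Promoter sequence was looked at because SREBP proteins work from short sites beside the start of transcription, together with the CCAAT-binding factor NF-Y and with Sp1. Of the 27 genes, 22 were matched by symbol in RefSeq's GRCm38.p6 promoters, which run from 250 bases before to 50 after each start site and gave 28 promoters. Fdft1, Fdps, Sqle, Npc1 and Stard4 were not matched. On both strands, the NF-Y box CCAAT was in 71.4% of the 28, against 37.4% of all 32851 promoters, and the Sp1 box GGGCGG in 82.1%, against 35.7%. Among promoters of tested protein-coding genes the shares were 37.8% for CCAAT and 65.8% for GGGCGG. By gene, 20 of the 22 had CCAAT in at least 1 promoter, against 43.4% of tested protein-coding genes, the exceptions being Acat2 and Scap. The sterol regulatory element searched, TCACNCCAC, was in 1 of the 28, that of Hmgcs1, against 1.24% of all promoters and 1.11% of those of tested protein-coding genes, and its shorter core CACCCCAC, which overlaps it, was in 2, those of Hmgcs1 and Acat2, against 2.87% and 2.94%. The E-box CACGTG was in 21.4%, against 7.15% of all promoters and 10.2% of those of tested protein-coding genes. A match is a run of letters, not a shown binding site. Only these strings within this window were searched, so a promoter without a match may still hold a site.

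The stretches before the start sites of 5 genes are given, in lower case with CCAAT (or ATTGG, the same box on the other strand) and TCACNCCAC in capitals. Hmgcs1 is shown as the promoter with the full element, Mvk and Ggps1 because they hold many CCAAT boxes but had a small or a negative difference, and Scap and Acat2 because they rose and hold none. They were chosen after their values were seen. All are GRCm38.p6, 5′ to 3′ on the gene's strand. That of Acat2 has 228 bases and leaves out the 22 bases before the RefSeq start, since the deposited gene begins there.
Hmgcs1, chr13:119690101-119690350, plus strand: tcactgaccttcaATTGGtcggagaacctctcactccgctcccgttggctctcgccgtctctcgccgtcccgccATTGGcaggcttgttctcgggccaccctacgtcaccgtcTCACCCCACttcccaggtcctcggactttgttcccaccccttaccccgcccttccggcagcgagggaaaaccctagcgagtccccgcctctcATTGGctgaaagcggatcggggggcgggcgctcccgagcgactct
Mvk, chr5:114444019-114444268, plus strand: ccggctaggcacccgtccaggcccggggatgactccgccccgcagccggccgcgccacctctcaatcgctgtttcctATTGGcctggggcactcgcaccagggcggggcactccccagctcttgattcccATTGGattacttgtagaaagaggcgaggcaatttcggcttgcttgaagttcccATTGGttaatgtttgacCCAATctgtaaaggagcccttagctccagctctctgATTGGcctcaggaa
Ggps1, chr13:14063489-14063738, minus strand: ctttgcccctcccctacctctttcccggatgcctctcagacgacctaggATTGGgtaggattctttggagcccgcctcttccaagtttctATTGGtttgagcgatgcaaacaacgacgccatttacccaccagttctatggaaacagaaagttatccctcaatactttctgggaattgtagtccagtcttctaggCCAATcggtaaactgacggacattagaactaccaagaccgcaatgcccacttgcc
Scap, chr9:110333038-110333287, plus strand: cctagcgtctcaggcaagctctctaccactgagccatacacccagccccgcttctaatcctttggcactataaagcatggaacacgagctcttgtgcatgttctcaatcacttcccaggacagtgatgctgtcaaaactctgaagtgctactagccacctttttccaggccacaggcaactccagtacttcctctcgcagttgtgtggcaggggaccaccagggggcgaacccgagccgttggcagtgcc
Acat2, chr17:12960748-12960975, minus strand: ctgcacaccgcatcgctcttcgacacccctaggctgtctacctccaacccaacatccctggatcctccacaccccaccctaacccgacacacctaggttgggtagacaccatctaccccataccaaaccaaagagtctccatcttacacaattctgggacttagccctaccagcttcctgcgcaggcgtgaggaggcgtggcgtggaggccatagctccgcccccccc
Mvk, with 5 CCAAT boxes in this stretch, had a difference of 0.06, and Ggps1, with 3, one of -0.09, beside 0.15 for Hmgcs1 with 3. Across the 22 genes the median difference was 0.08 for the 20 with CCAAT and 0.19 for the 2 without, which is a description of few genes.

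Several members lie in stretches of a chromosome where neighbours shared a direction, and each was set beside its protein-coding neighbours that start within 2.5 Mb. Scap had 54 such neighbours. At 100 nM 49 of these were higher and 5 lower, their median difference was 0.08 and 3 were called higher by limma. Npc2 on chromosome 12 had 36 higher of 41, with a median of 0.08, and Fdps and Pmvk, which lie close together on chromosome 3, had 71 higher of 85 and 70 higher of 84, with medians of 0.06 and 0.05. These 4 genes lay above their neighbours' medians, at 0.19 (Scap), 0.12 (Npc2), 0.20 (Fdps) and 0.18 (Pmvk). Cyp51 on chromosome 5 was the opposite case: all 17 neighbours were lower at 100 nM, with a median of -0.16 and 3 called lower by limma, while Cyp51 stood 0.18 higher. For Acat2, Idi1 and Hmgcs1 the neighbours' medians were near 0 (-0.02, -0.02 and -0.01). Npc1 and Stard4, both on chromosome 18, had mostly lower neighbours, 13 of 16 and 29 of 33, with medians of -0.05 and -0.06. Of the 27 genes, 23 exceeded their neighbours' median. The median difference was 0.09 for the 17 genes with a higher median among neighbours and 0.09 for the 10 with a lower one. The part of position in the differences was not tested.

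**Figure D5:**
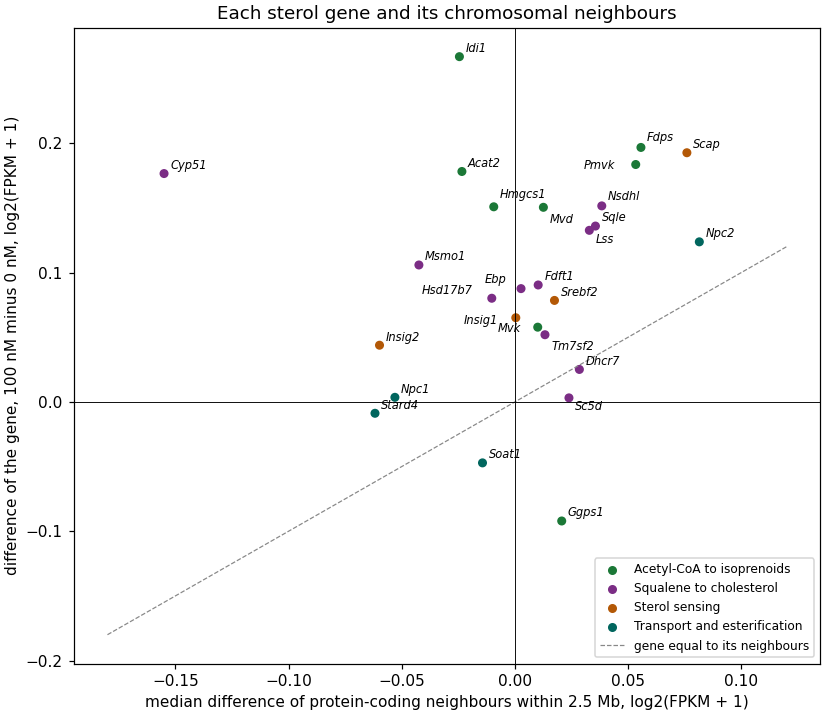
Difference of each of the 27 genes (vertical) against the median difference of its protein-coding neighbours within 2.5 Mb (horizontal), both 100 nM minus 0 nM on the log2(FPKM + 1) scale. On the dashed line a gene equals its neighbours; 23 genes lie above it, Cyp51 farthest left with a neighbour median of -0.16, and Scap and Npc2 farthest right with 0.08.

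Enzymes and cofactors of the same route that are not among the 27 also had higher means. Of 13 such genes, 13 had a higher mean at 100 nM (52.6% of all tested genes did), 1 rose and 0 fell by limma (median difference 0.09; 1.69% of all tested genes rose). Lbr, a lamin receptor that shares a reductase step with Tm7sf2, averaged 24.6 ± 0.762 FPKM at 100 nM and 24.4 ± 1.13 FPKM at 0 nM (SD, n = 3 each).

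Genes that cut SREBP proteins or degrade sterol-regulated proteins had means in both directions, but those whose groups did not overlap were all lower. Of 14 tested of 15 listed, 5 had a higher mean at 100 nM and 9 a lower one (52.6% of all tested genes were higher). By limma 2 fell and 0 rose (median difference -0.01, and 2.46% of all tested genes fell). At an unadjusted limma p under 0.05 there were 4, all lower (20.7% of all tested genes in either direction). The groups did not overlap for 5, all lower (13.3% of all tested genes were wholly lower). Ufd1 and Faf2, which help extract proteins from the endoplasmic reticulum for degradation, averaged 11.2 ± 0.380 and 9.67 ± 0.311 FPKM at 100 nM and 13.1 ± 0.590 and 10.9 ± 0.133 FPKM at 0 nM (SD, n = 3 each; limma adjusted p = 0.0468 and 0.0459). Both lie among lower neighbours, 50 of 55 on chromosome 16 for Ufd1 and 31 of 38 on chromosome 13 for Faf2, and each lost its call in 10 of 17 alternatives. Srebf1, which encodes the SREBP1 proteins of fatty acid synthesis, averaged 21.6 ± 0.236 FPKM at 100 nM and 21.6 ± 0.519 FPKM at 0 nM (SD, n = 3 each), with a 95% limma interval of the difference from -0.06 to 0.06.

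In uptake, efflux and intracellular transport, 19 of 27 listed genes were tested, 12 had a higher mean at 100 nM, 0 rose and 1 fell by limma (median difference 0.01). Of all tested genes, 52.6% had a higher mean, 1.69% rose and 2.46% fell. Abca1, the efflux pump, was below the level tested, at 0.29 to 0.31 FPKM at 100 nM and 0.25 to 0.43 FPKM at 0 nM. The oxysterol-binding gene Osbpl11 fell, at 5.93 ± 0.150 FPKM at 100 nM and 7.09 ± 0.127 FPKM at 0 nM (SD, n = 3 each; limma adjusted p = 0.0210), and all 32 of its neighbours on chromosome 16 were lower, with a median of -0.25. Among 14 genes of the isoprenoid branches, set beside the same shares, 10 had a lower mean at 100 nM, 0 rose and 1 fell by limma (median difference -0.03). This was Rabggtb, a subunit of the transferase that prenylates Rab GTPases, at 41.6 ± 0.756 FPKM at 100 nM and 48.5 ± 1.09 FPKM at 0 nM (SD, n = 3 each; limma adjusted p = 0.0109), and all 11 of its neighbours on chromosome 3 were lower, with a median of -0.27. Osbpl11 lost its call in 9 of 17 alternatives and Rabggtb in 4.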

How the data were processed

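Poly(A) RNA libraries that keep strand by dUTP marking were read in pairs, per the labels' protocols. The deposited values are FPKM made by the authors, written to 2 decimals for 28418 genes. The tools named, per the submitters' processing notes, are fastp, HISAT2 and StringTie, with builds mm10 and GRCh38. Neither their versions nor the role of GRCh38 is given in the sources used here. Gene identifiers are mouse, 28350 are in GENCODE M21 (GRCm38), and 25603 have the same coordinates there, among them 25 of the 27 members (not Scap and Tm7sf2). Coordinates are printed as deposited.

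Whether low FPKM are multiples of 1 fragment was examined: 29.0% to 33.0% came within 0.1 of one, too few to recover reads, and depth stays unknown. limma-trend (limma 3.58.1, R 4.3.3) was fitted to log2(FPKM + 1), 100 nM minus 0 nM, over 11741 genes averaging 1 FPKM or more, adjusted over all of them and called under 0.05. This scale understates changes of low genes. All 27 members are named; library values are given for the called ones, the 8 smallest p-values and the sensing genes, and for Ggps1, chosen after its values were seen. From related lists, called genes are named, and Lbr, Srebf1 and Abca1 always; some genes of these lists, 1 called gene among them, are not reported here. The members and lists were chosen with earlier results of these data known. Shared words are the 31-base words of a gene's GENCODE transcripts found in other genes. Neighbours are tested protein-coding genes. Python 3.11.15 with numpy 2.4.6, pandas 2.3.3, scipy 1.17.1 and matplotlib 3.10.9 was used for the rest.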

Additional observations from a re-analysis of the deposited data

How the results depend on the processing

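Over 17 alternatives (3 scalings, 2 pseudocounts, 2 filters, 2 moderations, the replicate number as a block and 7 that leave out libraries), 21 to 25 members had a higher mean at 100 nM. The groups did not overlap for 15 to 16 members with 6 libraries (15.3% of all genes with no filter, otherwise 26.4% to 28.5%), for 15 to 19 with 1 left out (35.7% to 37.4%) and for 21 without replicate 3 of both groups (49.1%). The median difference was 0.0845 with median-of-ratios scaling, 0.0999 with a pseudocount of 0.1, 0.0982 with a filter at 2 FPKM, 0.107 without replicate 3 of both groups and 0.0847 to 0.113 with 1 library left out. Over all genes 204 were called with no filter, 294 with no intensity trend, 58 with the replicate block, 91 without replicate 3 of both groups and 122 to 290 with 1 library left out. Members called were 1, 1, 0, 0 and 0 to 2 in that order, and related genes called, 7 in the main test, were 3, 3, 0, 1 and 1 to 3. Pairing by replicate number was not borne out: same-numbered libraries deviated from their group means with correlations of -0.033, -0.053 and 0.007. Directions turned mostly for differences near 0, but that of Tm7sf2, which also turned, was 0.052 in the main test. Npc1 was at -0.0012 with median-of-ratios scaling, -0.013 with quantile normalization and -0.054 to 0.075 with libraries left out (-0.052 without replicate 3 of both groups). Sc5d was at -0.0025 with median-of-ratios scaling and -0.02 to 0.029 with libraries left out. Dhcr7 was at -0.014 and Srebf1 at 0.0016 without replicate 3 of both groups. With 1 library left out, Srebf1 ranged from -0.019 to 0.013, Lbr from -0.021 to 0.043, Stard4 from -0.023 to 0.0072 and Tm7sf2 from -0.0039 to 0.10. Apart from library removal and the construction of the filters, the cause was not tested. With no read counts, precision rests on 3 libraries a group.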

Other observations

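Genes of fatty acid and NADPH supply that SREBP proteins also drive were set beside the sterol genes. Of 13 tested of 14 listed, 10 had a higher mean at 100 nM (52.6% of all tested genes did). By limma 2 rose and 0 fell (median difference 0.07, and 1.69% of all tested genes rose). The desaturase gene Scd2 had 158.48, 155.61 and 154.79 FPKM at 100 nM, against 136.91, 135.81 and 138.50 FPKM at 0 nM, and the synthase gene Fasn 60.42, 61.52 and 59.44 FPKM at 100 nM, against 55.96, 55.48 and 56.34 FPKM at 0 nM. Neither overlapped between groups. The call was lost in 1 of 17 alternatives for Scd2 and in 10 for Fasn. The paralog Scd1 had a difference of 0.04, with a 95% limma interval from -0.04 to 0.11, while that of Scd2 was 0.19.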
